A study of Mus musculus with 12 samples.

Results

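Transcripts of brain endothelial cells were followed in bulk RNA-sequencing libraries of cortical cells that had been isolated by their CD11b. They are represented by 10 genes, *Cldn5*, *Pecam1*, *Flt1*, *Kdr*, *Cdh5*, *Tie1*, *Ly6c1*, *Slco1c1*, *Abcb1a* and *Slc2a1*, chosen by name as markers of these cells among the 55487 genes of the count table. All 10 passed the filter on low counts, as did 15425 genes in total. The 12 male mice formed 4 groups of 3, namely WT mice on a C57BL/6J background and App NL-G-F mice, each treated with PBS (veh) or with rh Bri2 BRICHOS R221E, a recombinant human BRICHOS domain of Bri2 with chaperone activity. App NL-G-F mice carry a knock-in of a humanized amyloid-beta sequence with familial Alzheimer mutations in the mouse App gene, so both App groups share the knock-in. The first of 24 intravenous injections, of 10 mg/kg in the BRICHOS groups, was given at 9 months of age. Injections were given over 12 weeks and were followed by 4 weeks without treatment. Cortices of saline-perfused mice were digested with papain, and cells were bound to anti-CD11b magnetic beads. CD11b is a surface protein of myeloid cells which endothelial cells lack, so the 10 transcripts were not those the isolation aimed at.

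As background, brain endothelial cells line the capillaries and form the blood-brain barrier. Claudin and cadherin junctions seal the space between neighbouring cells, and transporters on the blood and brain sides decide which substances pass. Receptors for vascular endothelial growth factors (VEGF) and angiopoietins maintain the vessels. Endothelial cells share a basement membrane with pericytes and lie beside the endfeet of astrocytes, and pieces of vessels can remain attached to other cells after digestion of brain tissue.

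The promoter sequences of 4 of the genes are shown because these genes differed in their pattern across the groups. *Cldn5* is shown for the genes that were low in App mice, *Slco1c1* because its treatment difference in App mice was the largest of the 10, and *Flt1* and *Slc2a1* because they were not lower in App mice. A RefSeq window before the gene start on GRCm38.p6 was found for 8 of the 10 genes. The sequences lie upstream of the start, at chr16:18776597-18776846 (plus strand), chr6:141524104-141524353 (plus strand), chr5:147726012-147726261 (minus strand) and chr4:119108495-119108710 (plus strand), in the order given here. Capitals mark GGGCGG, the core of a GC box, or its reverse complement CCGCCC.
Cldn5: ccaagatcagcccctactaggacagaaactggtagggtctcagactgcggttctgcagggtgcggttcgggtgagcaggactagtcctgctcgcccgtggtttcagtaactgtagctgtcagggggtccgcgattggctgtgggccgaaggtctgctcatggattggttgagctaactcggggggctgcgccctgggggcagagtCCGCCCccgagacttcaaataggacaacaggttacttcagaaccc
Slco1c1: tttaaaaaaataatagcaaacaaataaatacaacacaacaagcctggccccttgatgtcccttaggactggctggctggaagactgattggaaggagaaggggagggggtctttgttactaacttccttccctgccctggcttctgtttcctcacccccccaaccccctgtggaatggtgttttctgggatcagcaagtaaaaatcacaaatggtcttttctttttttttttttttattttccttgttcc
Flt1: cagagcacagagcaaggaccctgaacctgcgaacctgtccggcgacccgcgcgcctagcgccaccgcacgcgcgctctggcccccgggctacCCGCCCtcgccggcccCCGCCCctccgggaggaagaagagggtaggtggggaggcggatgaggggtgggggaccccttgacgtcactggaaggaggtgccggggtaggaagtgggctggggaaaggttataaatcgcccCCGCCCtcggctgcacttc
Slc2a1: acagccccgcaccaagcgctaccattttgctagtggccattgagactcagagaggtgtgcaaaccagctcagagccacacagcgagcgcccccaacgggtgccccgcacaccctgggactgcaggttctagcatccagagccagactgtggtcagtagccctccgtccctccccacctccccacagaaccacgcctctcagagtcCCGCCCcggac

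The letters GGGCGG, searched on both strands, were found 3 times in the window of *Flt1*, 1 time in those of *Cldn5* and *Slc2a1* and not in that of *Slco1c1*. They are present in 32.7% of 32851 windows of 250 bases, and the window of *Slc2a1* has 216 bases. TATAAA, also searched on both strands, was present in the window of *Flt1* and in 12.4% of all windows. Base composition differed between the sequences, with 59.6% G and C in *Cldn5*, 70.4% in *Flt1*, 63.9% in *Slc2a1* and 42.8% in *Slco1c1*.

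Libraries held 12433402 to 17889654 counts, and 3 counts, the smallest level taken as detectable, correspond to 0.169 to 0.227 CPM (counts of a gene relative to all counts of a library), a limit for counting error only. The 10 genes were far above it in every library, with 143 counts for *Tie1* in 1 App BRICHOS mouse as the lowest number and 5230 for *Slc2a1* in 1 App veh mouse as the highest. Their summed level was between 679.9 and 1126 CPM in the 12 mice. All 8 listed microglia markers were detected in every library, and they summed to between 22550 and 28240 CPM. Between App veh and WT veh mice 6 of these 8 were lower and 1 was higher after adjustment in edgeR (median log2 fold change -0.40), against 16.9% and 20.1% of all tested genes. Levels are CPM computed with TMM factors and are given for mice 1, 2 and 3 of a group, in this order. In bulk RNA, fewer endothelial cells in an isolate and less RNA of a gene in each of these cells cannot be told apart.

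Between App veh and WT veh mice, 7 of the 10 genes were downregulated and 1, *Slc2a1*, was upregulated in App mice at an adjusted p-value under 0.05 in edgeR's quasi-likelihood test. Among all tested genes, 16.9% were called lower and 20.1% higher in this comparison. Downregulated were *Cldn5*, *Pecam1*, *Kdr*, *Cdh5*, *Tie1*, *Ly6c1* and *Abcb1a*, with log2 fold changes from -0.49 for *Kdr* to -1.19 for *Pecam1*. The 3 App mice lay below the 3 WT mice in 8 genes, against 25.3% of all genes. The median log2 fold change was -0.72 over the 10 genes and -0.02 over all tested genes. With scaling by total counts in place of TMM factors, the median over all tested genes was -0.21 here and -0.31 between the BRICHOS-treated strains, and values under that scaling are to be read against these shifts.

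Between App BRICHOS and App veh mice, all 10 genes were at a lower fitted level after treatment, and 0 of them had an adjusted p-value under 0.05 in edgeR, as had 0.00648% of all tested genes. At an unadjusted p-value under 0.05, 8 of the 10 were lower, against 7.67% of all tested genes. None of the 10 reached a log2 fold change of -1 in this comparison, a cutoff that the methods of the study state beside the unadjusted p-value. For its counts of changed genes, the study names only a p-value under 0.05 in its results. Whether the fold cutoff was applied to those counts was not examined here. The same 8 genes, those other than *Flt1* and *Slc2a1*, did not overlap between the groups, against 7.09% of all tested genes. The median log2 fold change was -0.64, against 0.01 over all tested genes. DESeq2's Wald test called 4 of them at an adjusted p-value under 0.05, namely *Slco1c1*, *Abcb1a*, *Cdh5* and *Tie1*, against 0.425% of the 29171 genes with a p-value in DESeq2, which was run without the filter. Without App veh mouse 3, edgeR called 2, *Slco1c1* and *Abcb1a*, against 1.02% of the genes tested in that setting.

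Between WT BRICHOS and WT veh mice, none of the 10 genes had an adjusted p-value under 0.05 in edgeR or in DESeq2. Over all genes, it was 0.0% of the tested genes in edgeR and 0.291% of the 29171 unfiltered genes in DESeq2. None of the 10 had an unadjusted p-value under 0.05 either, against 11.4% of all tested genes. The median log2 fold change was -0.1, and the groups overlapped in all 10 genes. WT BRICHOS mouse 1 had the highest level of its group in all 10 genes. Without this mouse *Cldn5*, *Flt1*, *Cdh5* and *Tie1* were lower after treatment at an unadjusted p-value under 0.05, and none after adjustment. In that setting 2285 of 15809 tested genes passed the unadjusted threshold in either direction, and 5 passed after adjustment.

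The treatment effects of the strains were compared with an interaction term. The fitted effect was lower in App than in WT mice for all 10 genes, although for *Flt1* and *Slc2a1* the direction changed when single mice were left out, with 0 adjusted p-values under 0.05 in edgeR and 1, that of *Slco1c1*, in DESeq2. Over all genes, 0.00648% of the 15425 tested genes were called in edgeR and 0.854% of the 29171 unfiltered genes in DESeq2. At the unadjusted threshold 5 of the 10 genes were lower (*Slco1c1*, *Cdh5*, *Ly6c1*, *Abcb1a* and *Pecam1*), against 9.54% of all tested genes. This number was 1 without App veh mouse 2, 2 without WT BRICHOS mouse 1, and 3 without WT veh mouse 1 or 3 or any one of the App BRICHOS mice. Between the strains under treatment, 8 genes were lower in App BRICHOS than in WT BRICHOS mice after adjustment in edgeR and *Slc2a1* was higher, against 21.8% and 20.8% of all tested genes. The same 8 genes were without overlap, against 26.4% of all tested genes, and their log2 fold changes were between -0.80 and -1.63. The comparisons share groups of mice, so they are not independent of each other.

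**Figure D1:**
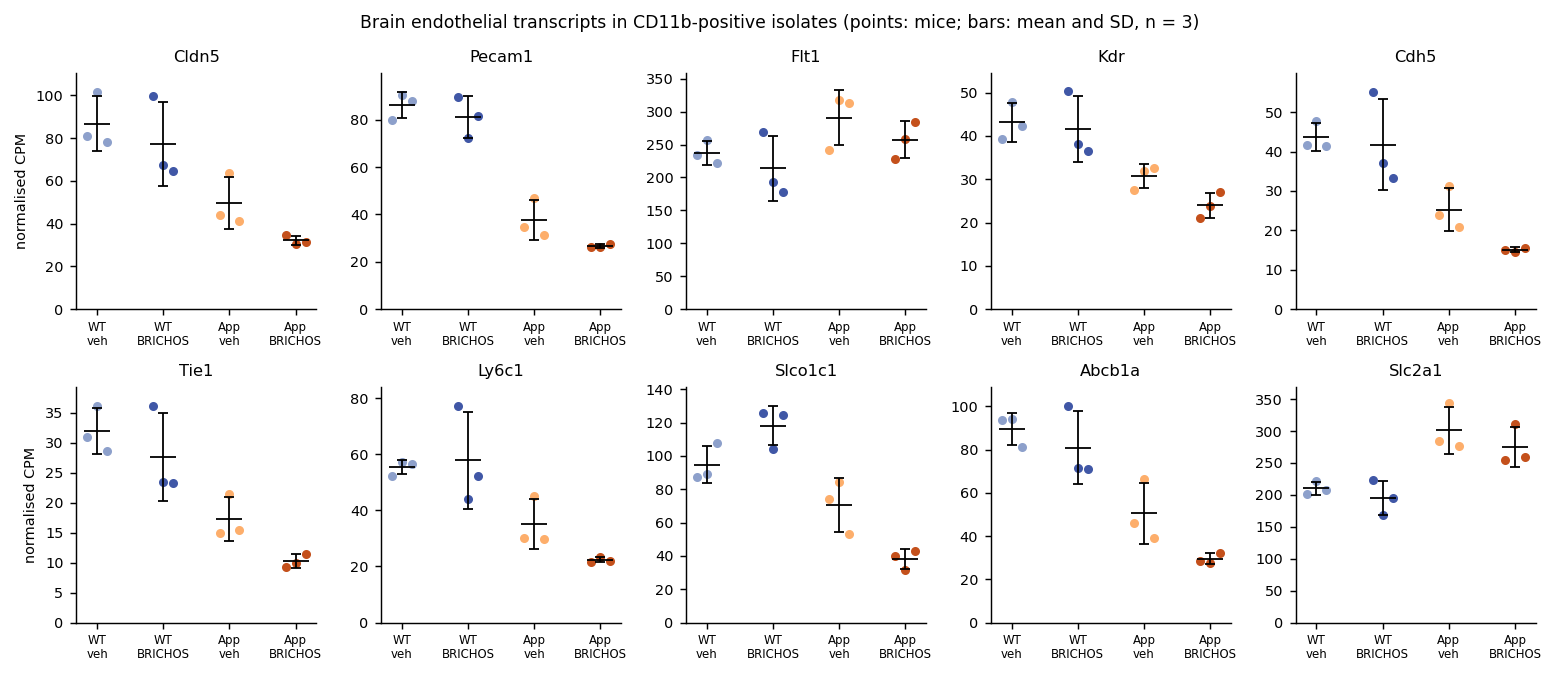
Level of each endothelial transcript (normalised CPM, linear axis from 0) in the 12 mice, by group. Points are mice, and bars are the mean and SD (n = 3). In 8 of the panels every App BRICHOS mouse lies below every App veh mouse, and in the panels of Flt1 and Slc2a1 these groups overlap.

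**Figure D2:**
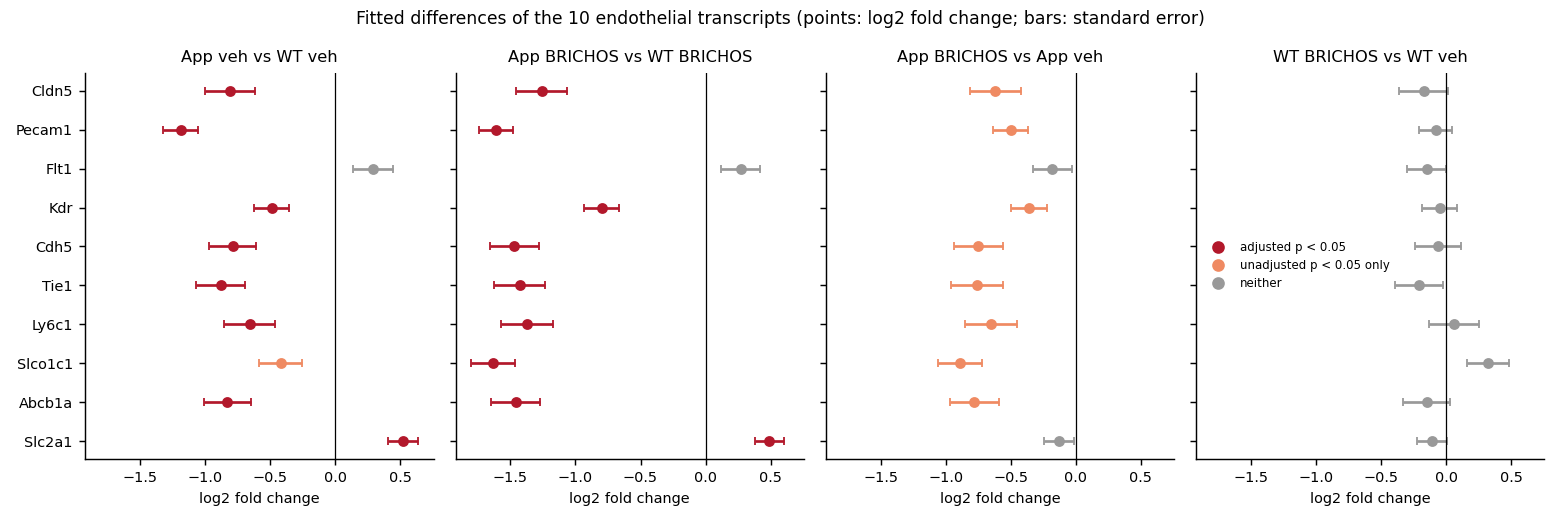
Fitted log2 fold change (points) and standard error (bars) of each transcript in 4 comparisons, coloured by adjusted and unadjusted p-value in edgeR. Slc2a1 and Flt1 lie to the right of 0 in both comparisons of the strains, and the points of the other 8 genes lie to the left.

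The first role is that of the junctions. *Cldn5* (ENSMUSG00000041378, GRCm38 chr16:18776847-18778262), the main claudin of the tight junctions of the blood-brain barrier, was at 80.87, 101.5 and 77.95 CPM in WT veh and at 99.71, 67.25 and 64.74 CPM in WT BRICHOS mice. In App veh mice it was at 43.97, 63.6 and 41.27 CPM and in App BRICHOS mice at 34.67, 30.52 and 31.42 CPM. Every App mouse was thus below every WT mouse, and every App BRICHOS mouse was below every App veh mouse. *Cldn5* fell by 0.81 on the log2 scale between WT veh and App veh mice (standard error 0.191, adjusted p = 0.0063 in edgeR). The log2 fold change of *Cldn5* after treatment of App mice was -0.62 (standard error 0.195, adjusted p = 0.299).

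*Cdh5* (ENSMUSG00000031871, chr8:104101625-104144511) encodes VE-cadherin, the adherens junction protein that holds endothelial cells to each other. Its levels were 41.77, 47.68 and 41.51 CPM in WT veh, 54.99, 37.0 and 33.37 CPM in WT BRICHOS, 23.96, 31.18 and 20.75 CPM in App veh and 15.11, 14.4 and 15.64 CPM in App BRICHOS mice. The App BRICHOS mice were close to each other (15.05 ± 0.622 CPM, SD, n = 3), while the WT BRICHOS mice had an SD of 11.6 CPM. The log2 fold change between App veh and WT veh mice was -0.79 (standard error 0.181, adjusted p = 0.00543). After treatment of App mice it was -0.75 (standard error 0.188), with an adjusted p of 0.291 in edgeR and 0.0355 in DESeq2.

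*Pecam1* (ENSMUSG00000020717, chr11:106654217-106750628), an adhesion molecule at the contacts between endothelial cells that leukocytes and platelets also carry, had the largest downregulation of the 10 genes in App veh mice. It was at 79.84, 90.44 and 87.78 CPM in WT veh and at 34.58, 47.06 and 31.34 CPM in App veh mice, lower by a log2 fold change of -1.19 with a standard error of 0.131 (adjusted p = 2.93e-05). WT BRICHOS mice had 89.63, 72.26 and 81.51 CPM and overlapped with WT veh mice. App BRICHOS mice had 26.15, 26.1 and 27.72 CPM and lay below all App veh mice, with a log2 fold change of -0.50 (adjusted p = 0.291 in edgeR).

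The second role is that of receptors for growth factors. *Kdr* (ENSMUSG00000062960, chr5:75932827-75978458) encodes VEGF receptor 2, which carries the main signal of VEGF-A in endothelium. It was at 39.17, 47.92 and 42.25 CPM in WT veh, 50.39, 38.07 and 36.46 CPM in WT BRICHOS, 27.45, 31.96 and 32.6 CPM in App veh and 21.11, 23.74 and 27.04 CPM in App BRICHOS mice. It had the smallest change of the downregulated genes between the veh-treated strains (log2 fold change -0.49, standard error 0.136, adjusted p = 0.0143 in edgeR). This adjusted p-value was above 0.05 without WT veh mouse 2 or App veh mouse 1. The log2 fold change of the treatment in App mice was -0.36 (adjusted p = 0.374).

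*Flt1* (ENSMUSG00000029648, chr5:147561604-147726011) encodes VEGF receptor 1, which binds VEGF-A tightly and limits its access to VEGF receptor 2, and which macrophages also express. Its levels were 234.2, 256.9 and 221.2 CPM in WT veh, 269.3, 193.5 and 178.4 CPM in WT BRICHOS, 242.4, 316.9 and 313.1 CPM in App veh and 228.7, 258.9 and 284.2 CPM in App BRICHOS mice. The groups overlapped in each of these comparisons, and no difference of *Flt1* passed the test with all mice included. Between App veh and WT veh mice the log2 fold change was 0.29 (standard error 0.151, adjusted p = 0.153). Between App BRICHOS and WT BRICHOS mice it was 0.27 (adjusted p = 0.178). It was -0.01 with scaling by total counts, and without WT BRICHOS mouse 1 it was 0.47 and was called (adjusted p = 0.0128 in edgeR).

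*Tie1* (ENSMUSG00000033191, chr4:118471191-118490061), a receptor of the angiopoietin pathway that acts together with *Tek*, was at 30.88, 36.12 and 28.61 CPM in WT veh and at 36.03, 23.43 and 23.3 CPM in WT BRICHOS mice. It was at 14.96, 21.46 and 15.41 CPM in App veh and at 9.232, 9.981 and 11.48 CPM in App BRICHOS mice. No App mouse reached the lowest WT mouse. The log2 fold change was -0.88 between App veh and WT veh mice (standard error 0.189, adjusted p = 0.00355) and -0.76 between App BRICHOS and App veh mice (standard error 0.198, adjusted p = 0.291 in edgeR and 0.0497 in DESeq2).

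*Ly6c1* (ENSMUSG00000079018, chr15:75044018-75048830) encodes a small surface protein anchored in the membrane by a lipid, abundant on brain endothelium of the mouse. It was at 52.45, 57.29 and 56.71 CPM in WT veh, 77.41, 44.1 and 52.2 CPM in WT BRICHOS, 30.24, 45.29 and 29.94 CPM in App veh and 21.76, 23.48 and 21.91 CPM in App BRICHOS mice. The log2 fold change between App veh and WT veh mice was -0.66 (standard error 0.196, adjusted p = 0.0211). The call was lost without WT veh mouse 2 or 3 or App veh mouse 1 or 3. The treatment of App mice gave -0.65 (adjusted p = 0.294). In its transcripts, 32.8% of the windows of 50 bases also occur in other genes, most of them in *Ly6c2*, a gene of monocytes. *Ly6c2* itself was at group means between 2.924 and 6.273 CPM and had no call (log2 fold change 0.49 between App veh and WT veh mice, adjusted p = 0.722).

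The third role is transport. *Slco1c1* (ENSMUSG00000030235, chr6:141524368-141570177) encodes OATP1C1, which carries thyroxine into the brain and is also found in astrocytes. It was at 87.58, 88.9 and 107.5 CPM in WT veh and at 125.5, 104.4 and 124.3 CPM in WT BRICHOS mice, and the groups overlapped (log2 fold change 0.32, adjusted p = 0.492 in edgeR). App veh mice had 74.27, 84.34 and 52.91 CPM and App BRICHOS mice 40.16, 31.35 and 43.13 CPM. Between App veh and WT veh mice the log2 fold change of *Slco1c1* was -0.42, and its adjusted p-value of 0.0628 was above the threshold in edgeR and 0.0341 in DESeq2. It had the largest log2 fold change of the 10 genes for the treatment of App mice, -0.89 (standard error 0.168), with an adjusted p of 0.212 in edgeR and 0.000469 in DESeq2. The interaction term for *Slco1c1* was -1.21 (standard error 0.234), with an adjusted p of 0.151 in edgeR and 0.000679 in DESeq2. Between App BRICHOS and WT BRICHOS mice *Slco1c1* fell by 1.63 on the log2 scale (adjusted p = 1.67e-05).

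*Abcb1a* (ENSMUSG00000040584, chr5:8660077-8748575) encodes P-glycoprotein, which pumps drugs and other hydrophobic substances back into the blood. It was at 93.47, 94.24 and 81.08 CPM in WT veh, 100.3, 71.3 and 71.2 CPM in WT BRICHOS, 45.91, 66.42 and 39.05 CPM in App veh and 28.34, 27.7 and 32.33 CPM in App BRICHOS mice. The log2 fold change between App veh and WT veh mice was -0.83 (standard error 0.183, adjusted p = 0.0042). With treatment of App mice it was -0.78, with an adjusted p of 0.291 in edgeR and 0.0178 in DESeq2. Its close paralog *Abcb1b*, which shares 16.3% of the 50-base windows of *Abcb1a*, was changed the other way. *Abcb1b* had group means of 38.44 CPM in WT veh and 70.49 CPM in App veh mice, a log2 fold change of 0.87 (adjusted p = 5.17e-05), and 73.5 CPM in App BRICHOS mice. How reads common to both genes were counted is not given in the sources used here.

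*Slc2a1* (ENSMUSG00000028645, chr4:119108711-119137983) encodes GLUT1, which supplies the brain with glucose across the endothelium and is also present in glial cells. It was at 201.9, 222.0 and 207.5 CPM in WT veh, 222.5, 168.2 and 195.2 CPM in WT BRICHOS, 284.8, 343.3 and 275.8 CPM in App veh and 254.8, 310.4 and 258.8 CPM in App BRICHOS mice. All 6 App mice were above all 6 WT mice. *Slc2a1* was upregulated between App veh and WT veh mice (log2 fold change 0.52, standard error 0.114, adjusted p = 0.00423) and between App BRICHOS and WT BRICHOS mice (0.49, adjusted p = 0.00491). With scaling by total counts the latter was 0.22 and not called. The treatment gave -0.13 in App mice (adjusted p = 0.739) and -0.11 in WT mice (adjusted p = 0.769). A gene on the opposite strand overlaps 105 bases of the exons of *Slc2a1*, and another 553 bases of those of *Abcb1a*.

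Levels can be compared between genes only per length of the transcript. In CPM per kb of exon, *Cldn5* (61.3 ± 9.08) and *Slc2a1* (60.0 ± 2.96) had the highest levels in WT veh mice and overlapped with each other. *Ly6c1* followed with 33.1 ± 1.58, without overlap with its neighbours. Next were *Slco1c1* with 18.3 ± 2.15, *Flt1* with 17.6 ± 1.33 and *Abcb1a* with 16.3 ± 1.35 (SD, n = 3), and neighbours among these 3 genes overlapped. *Pecam1*, *Cdh5*, *Tie1* and *Kdr* came last, with 13.8, 10.4, 6.48 and 4.77 CPM per kb and no overlap between neighbours. In App veh mice the order began with *Slc2a1* (85.9 ± 10.4), without overlap with *Cldn5* (35.0 ± 8.61), and *Flt1* moved ahead of *Ly6c1* (21.5 CPM per kb for *Flt1*), although both overlapped. In App BRICHOS mice *Slc2a1* was at 78.3 ± 8.84 and *Cldn5* at 22.7 ± 1.54, and the lowest were *Kdr* at 2.65 and *Tie1* at 2.08 CPM per kb.

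The genes were then compared with each other within a library, by dividing the CPM of each gene by that of *Cdh5*. *Cdh5* itself varied between 14.4 and 54.99 CPM over the 12 mice. The ratio of *Abcb1a* to *Cdh5* lay between 1.82 and 2.24, a span of 1.23-fold, that of *Tie1* between 0.611 and 0.757 (1.24-fold), that of *Cldn5* between 1.81 and 2.29 (1.27-fold) and that of *Ly6c1* between 1.19 and 1.63 (1.37-fold). These 4 genes thus kept a nearly fixed proportion to *Cdh5* in all groups. *Pecam1* and *Slco1c1* varied more, between 1.44 and 2.44 and between 1.86 and 3.73.

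The ratio of *Pecam1* to *Cdh5* had a mean of 1.97 in WT veh and 1.49 in App veh mice, without overlap. *Flt1* and *Slc2a1* left this proportion. The ratio of *Flt1* to *Cdh5* was 5.44 in WT veh, 5.16 in WT BRICHOS, 11.8 in App veh and 17.1 in App BRICHOS mice. The ratio of *Slc2a1* to *Cdh5* was 4.83, 4.81, 12.1 and 18.3 in the same groups. *Kdr* was in between, with means of 0.987, 1.01, 1.25 and 1.59. The ratios to *Cdh5* were chosen after the data were seen and were not tested. The planned reference was the summed CPM of the 82 other endothelial genes listed below. Relative to it, *Abcb1a*, *Tie1*, *Cldn5*, *Ly6c1* and *Cdh5* spanned 3.16, 3.15, 2.85, 2.88 and 3.34-fold. Relative to the 22 surface and secreted genes among them, they spanned 1.74, 1.87, 1.55, 1.64 and 1.68-fold. Among these references, the proportion was nearly fixed only to *Cdh5*.

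**Figure D3:**
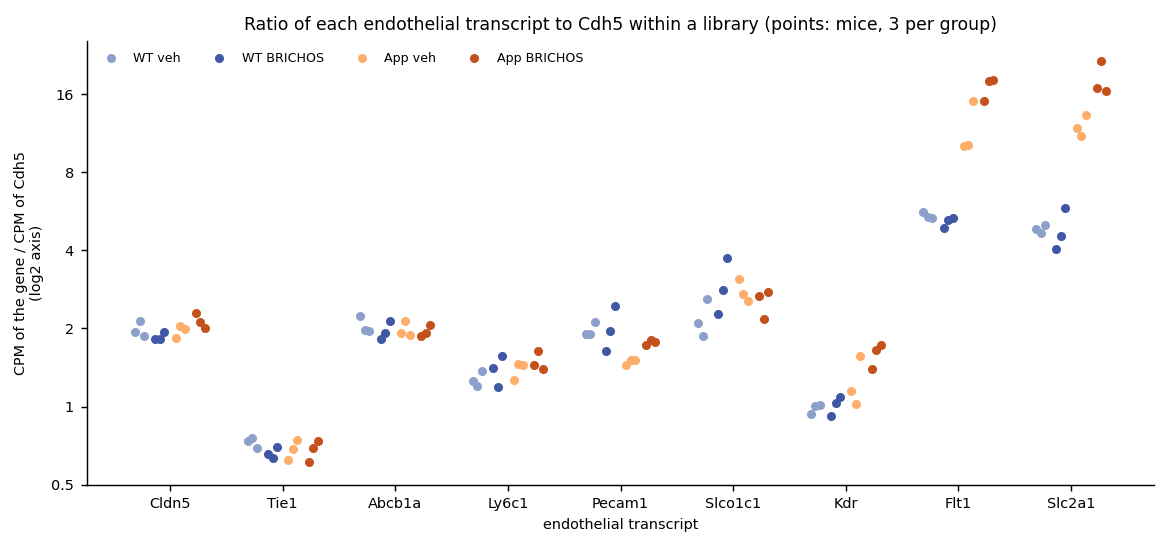
Level of 9 of the transcripts divided by that of Cdh5 in the same library, on a log2 axis. Points are mice, coloured by group. Abcb1a, Tie1, Cldn5 and Ly6c1 stay within 1.37-fold over the 12 mice, whereas Flt1 and Slc2a1 are higher relative to Cdh5 in all App mice than in all WT mice.

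The sum over the 10 genes hides this difference, since *Flt1* and *Slc2a1* make up a large part of it. The summed level in App veh mice was 0.928 of that in WT veh mice, and 0.596 without *Flt1* and *Slc2a1*. App BRICHOS mice had 0.803 of the summed level of App veh mice, and 0.626 without both genes. WT BRICHOS mice had 0.955 of the level of WT veh mice. Without *Flt1* and *Slc2a1*, the sums were 506.0, 564.1 and 523.4 CPM in WT veh, 634.0, 457.8 and 487.1 CPM in WT BRICHOS, 295.3, 391.3 and 263.3 CPM in App veh and 196.5, 187.3 and 210.7 CPM in App BRICHOS mice. The omission was chosen after the data were seen, and these sums were not tested.

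Another 82 genes of endothelium were listed by role, of which 79 passed the filter. *Ackr1*, *Selp* and *Sele*, which mark venous or activated endothelium, did not. Between App veh and WT veh mice, 44 were downregulated and 9 upregulated in App mice at an adjusted p-value under 0.05, against 16.9% and 20.1% of all tested genes, with a median log2 fold change of -0.65. Between App BRICHOS and WT BRICHOS mice, 56 were lower and 8 higher, against 21.8% and 20.8% of all tested genes. For the treatment of App mice 0 were called in edgeR and 6, all lower, in DESeq2, and edgeR called 6 without App veh mouse 3 and 4 without the filter on low counts. The shares over all genes were 0.425% in DESeq2, 1.02% without this mouse and 0.0857% without the filter. At the unadjusted threshold 40 were lower and 1 was higher, against 7.67% and 3.18% of all tested genes, and the number of lower genes was 27 without App veh mouse 2. For the treatment of WT mice 0 were called in either tool, with 4 lower and 2 higher at the unadjusted threshold, against 4.83% and 6.55% of all tested genes. The 4 became 12 without WT BRICHOS mouse 1. Between App veh and WT veh mice, 5710 of 15425 genes were called in either direction. This was 7202 of 15425 with scaling by total counts and 5770 of 14480 with only the groups compared. It was 5471 of 29171 in DESeq2 and 5147 of 29173 without the filter. The numbers over all genes given here are those against which the numbers of each list that follows are to be read.

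Of the 22 other surface and secreted proteins of endothelium, 19 fell and 1 rose in App veh relative to WT veh mice. *Eng*, a co-receptor of TGF-beta ligands, went from a mean of 214.4 to 116.8 CPM (log2 fold change -0.88, adjusted p = 5.35e-06), and *Pltp*, a phospholipid transfer protein, from 185.8 to 117.9 CPM (-0.65, adjusted p = 0.000312). *S1pr1*, the sphingosine 1-phosphate receptor, was the gene that rose, from 112.2 to 203.9 CPM (0.86, adjusted p = 0.00036). In App veh mice 1, 2 and 3 *S1pr1* was at 236.0, 225.3 and 150.5 CPM. The astrocyte markers described below summed to 4741, 4178 and 1509 CPM in these mice. The part of astrocytes in *S1pr1* was not tested. At the unadjusted threshold 16 of the 22 were lower after treatment of App mice and 0 of the 22 after treatment of WT mice. *Pltp* was at 77.55 CPM in App BRICHOS mice (log2 fold change -0.61), with an adjusted p of 0.144 in edgeR, of 0.000181 in DESeq2 and of 0.0171 in edgeR without App veh mouse 3.

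Of 12 transcription factors of endothelium, 7 fell and 1, *Sox7*, rose in App veh mice, from 4.296 to 12.42 CPM. The number that fell was 3 without App veh mouse 1 or WT veh mouse 2, and 4 without App veh mouse 3. *Epas1*, which encodes HIF-2 alpha, was at 211.9 CPM in WT veh, 217.5 CPM in WT BRICHOS, 154.0 CPM in App veh and 87.5 CPM in App BRICHOS mice. Between the veh-treated strains its log2 fold change was -0.46, with an adjusted p of 0.0723 in edgeR and 0.0364 in DESeq2. In edgeR it was called as lower with scaling by total counts (adjusted p = 0.0165) and without the filter on low counts (0.0325). It was also called without App veh mouse 2 (0.0112) or WT BRICHOS mouse 1 (0.0463). Its log2 fold change for the treatment of App mice was -0.82, with an adjusted p of 0.278 in edgeR, of 0.0066 in DESeq2 and of 0.031 in edgeR without App veh mouse 3. At the unadjusted threshold 9 of the 12 factors were lower, a number that was 5 without App veh mouse 2 and 6 without App BRICHOS mouse 1. *Tal1*, which is also active in blood cells, had a log2 fold change of -0.17 between the veh-treated strains with an adjusted p of 0.0628 in edgeR. It was called as lower with scaling by total counts (adjusted p = 0.000835), with at least 10 counts asked for in every library (0.0484) and without App veh mouse 3 (0.0228). Of 7 arterial genes, 3 fell in App veh mice, among them *Sema3g*, a secreted semaphorin (28.57 to 14.32 CPM, adjusted p = 0.0164 in edgeR). The number of arterial genes that fell was 5 with scaling by total counts, 6 without App veh mouse 2 and 1 without WT veh mouse 2, and the call of *Sema3g* was lost without WT veh mouse 2 or 3. *Efnb2*, the ephrin ligand of arterial cells, and *Hey1*, a target of Notch signals, had log2 fold changes of -0.40 and 0.04 (adjusted p = 0.197 and 0.893 in edgeR), and *Efnb2* was called as lower with scaling by total counts and without App veh mouse 2. Of the 4 venous or activated genes that passed the filter, 0 were called in edgeR, and 1, *Icam1*, had an unadjusted p-value under 0.05. *Icam1*, a ligand of leukocyte integrins that myeloid cells also express, was at 398.8 CPM in WT veh and 608.0 CPM in App veh mice (log2 fold change 0.61, adjusted p = 0.0569). It was called as higher with the replicate block (adjusted p = 0.0219), with only the groups compared (0.0205), without the filter on low counts (0.0231), and without App veh mouse 3 or App BRICHOS mouse 2 or 3. *Icam1* was also higher by 0.71 on the log2 scale in App BRICHOS than in WT BRICHOS mice (adjusted p = 0.0278 in edgeR), a call lost with scaling by total counts, with only the groups compared, and without WT BRICHOS mouse 1 or 2 or App BRICHOS mouse 2. *Vcam1*, an adhesion molecule for leukocytes, and *Nr2f2*, a factor of venous identity, had log2 fold changes of 0.14 and -0.69 between App veh and WT veh mice (adjusted p = 0.641 and 0.119 in edgeR), and *Nr2f2* was called as lower without App BRICHOS mouse 2.

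The list of the VEGF and angiopoietin pathways was divided. Of 11 other pathway genes, 4 fell and 5 rose in App veh mice, and 2 fell without App veh mouse 1 or 3 or WT veh mouse 2. *Ptprb*, the endothelial phosphatase VE-PTP that acts on the Tie receptors, fell from 150.6 to 82.48 CPM (log2 fold change -0.87, adjusted p = 0.00279). The VEGF co-receptors *Nrp1* and *Nrp2*, which myeloid cells also express, rose from 128.6 to 353.9 CPM and from 62.9 to 110.0 CPM (adjusted p = 2.19e-07 and 1.01e-05). Of 13 other transporters, 5 fell and 1 rose. *Slco2b1*, an organic anion transporter, went from 1329 to 926.9 CPM, and *Slc3a2*, the heavy chain of the large neutral amino acid transporter, from 336.2 to 423.0 CPM (adjusted p = 2.4e-05 and 0.00449 in edgeR). With scaling by total counts the call of *Slc3a2* was lost (adjusted p = 0.0875). *Slc7a5*, the light chain LAT1 that pairs with *Slc3a2*, fell from 116.9 to 78.31 CPM (log2 fold change -0.58, adjusted p = 0.000179).

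Of 10 other junction genes, 6 fell and 1, *Jam2*, passed the test as higher. The number that fell was 3 without App veh mouse 1 or 2 or WT veh mouse 3. The number called as higher was 2 with the replicate block, with only the groups compared, and without App BRICHOS mouse 1 or WT BRICHOS mouse 1 or 3. The call of *Jam2* (log2 fold change 0.23, adjusted p = 0.0274 in edgeR) was lost with scaling by total counts (0.04, adjusted p = 0.66), without the filter on low counts, and without App veh mouse 1 or 2 or WT veh mouse 1 or 3. *Tjp1*, the scaffold protein ZO-1, went from 377.4 to 186.2 CPM (log2 fold change -1.02, adjusted p = 4.09e-08), and *F11r*, the junctional adhesion molecule A that leukocytes also carry, from 449.9 to 397.4 CPM (-0.18, adjusted p = 0.0225). The call of *F11r* was lost without App veh mouse 1 or 2 or WT veh mouse 2 or 3. At the unadjusted threshold, 4 of the pathway genes, 6 of the transporters and 4 of the junction genes were lower after treatment of App mice, and 2, 3 and 2 of them without App BRICHOS mouse 2. Without App veh mouse 2, 2 of the pathway genes and 3 of the transporters were lower. With at least 10 counts asked for in every library, 2 of the pathway genes were lower. *Slco2b1*, *F11r* and *Nrp1*, the genes with the highest mean level in these lists, had log2 fold changes of 0.02, 0.04 and -0.01 for this treatment (adjusted p = 0.938, 0.872 and 0.992 in edgeR). The median over the 8 microglia markers was 0.05, and the part of microglia in these genes was not tested.

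Markers of other cells were summed in the same libraries. The 11 pericyte and smooth muscle markers, all detected in every library, summed to 243.1 to 274.4 CPM in WT veh, 288.5 to 382.5 CPM in WT BRICHOS, 152.4 to 222.4 CPM in App veh and 91.3 to 152.2 CPM in App BRICHOS mice. In App veh mice 2 of the 11 were lower than in WT veh mice after adjustment in edgeR, near the 16.9% of all tested genes. This number was 5 in DESeq2 or without the filter on low counts, 6 with scaling by total counts or only the groups compared, 7 without App veh mouse 2, 4 without WT BRICHOS mouse 1 or App BRICHOS mouse 1, 1 without App veh mouse 3 or WT veh mouse 2, and 0 without App veh mouse 1 or WT veh mouse 3. With scaling by total counts 7202 of the 15425 tested genes were called in either direction, against 5710 with TMM factors. Without App veh mouse 2 it was 4637 of 15802. Between the BRICHOS-treated strains all 11 markers were lower. After treatment of App mice 0 were called in edgeR and 2 in DESeq2, while 4 were lower at the unadjusted threshold, and 2 without App veh mouse 2 or App BRICHOS mouse 2. *Rgs5*, a marker of pericytes, was at 93.33, 121.3, 64.51 and 47.04 CPM in WT veh, WT BRICHOS, App veh and App BRICHOS mice, and *Vtn*, also high in pericytes, at 60.71, 63.71, 43.02 and 26.9 CPM. *Notch3*, a receptor of these cells, was at 21.7, 28.79, 17.81 and 12.5 CPM. In WT mice 10 of the 11 had a higher fitted level after treatment (median log2 fold change 0.41) and their sums did not overlap, while the median over the 10 endothelial genes was -0.1 and their sums overlapped. The difference between both lists was not tested. There were 0 adjusted calls in edgeR and DESeq2 and 1 at the unadjusted threshold of edgeR, a number that was 7 with only the groups compared, 4 with the replicate block, and 0 to 6 with a mouse left out. Over all genes, 1734 of 14821 passed this threshold in either direction with only the groups compared, and 2088 of 15425 with the block. The part of pericytes or smooth muscle in the endothelial values was not tested.

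The 8 astrocyte markers, also all detected, followed another order. They summed to 530.6 to 706.3 CPM in WT veh, 551.0 to 973.0 CPM in WT BRICHOS, 1509 to 4741 CPM in App veh and 699.4 to 1983 CPM in App BRICHOS mice. All 8 were upregulated in App veh relative to WT veh mice (median log2 fold change 2.12), opposite to the 7 downregulated endothelial genes, and all 8 were lower at the unadjusted threshold after treatment of App mice (median -1.36, 0 adjusted calls in edgeR and in DESeq2). Without App veh mouse 1 it was 4 of the 8, and without App veh mouse 3 edgeR called 2 after adjustment. *Slc1a2*, the glutamate transporter GLT-1, was at 166.2, 224.3, 1335 and 452.1 CPM in the 4 groups. In App veh mice 1, 2 and 3 the astrocyte markers summed to 4741, 4178 and 1509 CPM, and the 10 endothelial genes without *Flt1* and *Slc2a1* to 295.3, 391.3 and 263.3 CPM. The part of astrocytes in the endothelial values was not tested.

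The 8 choroid plexus and ependymal markers, of which all were detected, summed to 869.4 to 3948 CPM in WT veh, 3276 to 6807 CPM in WT BRICHOS, 645.6 to 1977 CPM in App veh and 652.9 to 981.7 CPM in App BRICHOS mice. After treatment of WT mice 5 of the 8 were higher at the unadjusted threshold of edgeR (median log2 fold change 1.28), and 2 to 7 with a mouse left out. In the interaction 5 were lower (median -1.76), and 1 to 6 with a mouse left out. After treatment of App mice 0 passed this threshold. Adjusted calls in edgeR were 0 in each case. The part of choroid plexus in *Slco1c1* was not tested. Border macrophage markers summed to 298.9 to 353.7 CPM in WT veh, 392.4 to 480.7 CPM in WT BRICHOS, 125.6 to 170.2 CPM in App veh and 124.9 to 166.8 CPM in App BRICHOS mice, all 5 of them lower in App veh than in WT veh mice after adjustment. Between App BRICHOS and App veh mice 0 of the 5 passed the unadjusted threshold. In WT mice the sums of both treatments did not overlap. *Mrc1* and *Cd163* were higher after treatment of WT mice (log2 fold change 0.44 and 0.49, unadjusted p = 0.00874 and 0.00141 in edgeR), and *Cbr2* did not pass this threshold. The adjusted p of *Cd163* was 0.239 in edgeR and 0.0368 in DESeq2, and that of *Mrc1* was 0.283 and 0.145. The 6 fibroblast markers summed to 11.64 to 16.1 CPM in WT veh, 20.66 to 53.86 CPM in WT BRICHOS, 9.484 to 11.68 CPM in App veh and 5.758 to 9.103 CPM in App BRICHOS mice. After treatment of WT mice 5 of the 6 were higher at the unadjusted threshold, with 0 adjusted calls in edgeR and 2 in DESeq2, and 3 were higher at the unadjusted threshold without WT veh mouse 3 or WT BRICHOS mouse 3.

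The mean summed levels of oligodendrocyte, neuron, blood myeloid and red cell markers were also lower in App veh than in WT veh mice. The 8 oligodendrocyte markers summed to 9684 to 16950 CPM in WT veh, 4159 to 15640 CPM in WT BRICHOS, 3229 to 5651 CPM in App veh and 4509 to 6198 CPM in App BRICHOS mice. All 8 had a lower fitted level in App veh mice, with 2 adjusted calls in edgeR, and 5 with only the groups compared. The 8 neuron markers summed to 24.52 to 28.7, 28.09 to 35.26, 8.741 to 12.01 and 9.215 to 10.65 CPM in the same groups, and 5 of the 7 tested were lower in App veh mice after adjustment, or 3 without App veh mouse 1, WT veh mouse 2 or WT veh mouse 3, or with at least 10 counts asked for in every library. The 7 markers of blood myeloid cells summed to 45.23 to 382.5, 88.63 to 396.2, 28.56 to 40.3 and 17.68 to 48.56 CPM, and 6 of them were lower in App veh mice after adjustment. The 5 red cell markers summed to 79.66 to 187.1, 61.79 to 277.1, 43.94 to 109.9 and 38.98 to 89.44 CPM, with 0 adjusted calls between the veh-treated strains in edgeR and DESeq2 and 0 at the unadjusted threshold of edgeR. The 6 platelet markers, of which 3 were tested, summed to 107.4 to 120.4, 96.08 to 107.5, 126.7 to 132.8 and 136.3 to 149.5 CPM. Most of this sum was *Itgb3*, an integrin that is also found on other cells, which was higher in App veh than in WT veh mice (93.12 to 124.1 CPM, adjusted p = 0.000163 in edgeR). *Gp9*, a subunit of the platelet receptor for von Willebrand factor, fell from 18.47 to 4.217 CPM (adjusted p = 3.55e-06), and *Itga2b* was at 1.09 and 0.74 CPM and was not called. The platelet markers *Ppbp*, *Gp1ba* and *Gp1bb* did not pass the filter, and whether *Gp9* came from platelets was not tested. Between App BRICHOS and App veh mice, none of the oligodendrocyte, neuron, blood myeloid, red cell and platelet markers was called in edgeR. At the unadjusted threshold of edgeR, *Gp9* and *Itgb3* were higher after this treatment, without overlap (log2 fold change 0.68 and 0.13, unadjusted p = 0.00341 and 0.0384). *Itga2b* did not pass it, and 1 of the neuron markers was lower. The part of all these cell types in the endothelial values was not tested.

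**Figure D4:**
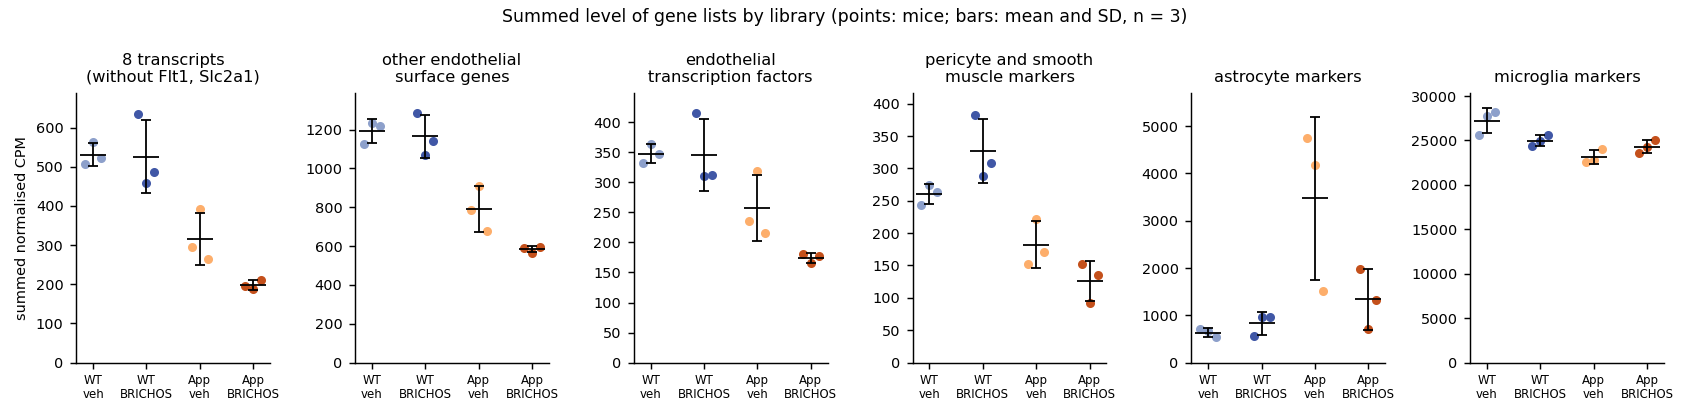
Summed level (normalised CPM, linear axes from 0 with a range of their own) of 8 of the endothelial transcripts and of 5 other lists in the 12 mice, by group. Points are mice, and bars are the mean and SD (n = 3). The means of the 8 transcripts, the other surface genes and the transcription factors of endothelium are lower in App veh than in WT mice and lowest in App BRICHOS mice, the astrocyte markers are highest in App veh mice, and the microglia markers lie between 22550 and 28240 CPM.

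Mice of the same group differed in the endothelial genes as a set. The mean deviation of log2 CPM of the 10 genes from their group means was 0.311 in WT BRICHOS mouse 1 and 0.288 in App veh mouse 2, and between -0.18 and 0.102 in the other 10 mice. Across the 12 libraries, with group means removed, the correlation of each gene with the mean of the 9 others was 0.957 for *Tie1*, 0.932 for *Cdh5*, 0.931 for *Ly6c1*, 0.91 for *Abcb1a*, 0.901 for *Cldn5*, 0.858 for *Pecam1*, 0.737 for *Slc2a1*, 0.7 for *Flt1*, 0.662 for *Kdr* and 0.423 for *Slco1c1*. *Slco1c1* was thus the least like the others between mice of a group. These correlations describe 12 libraries that share their scaling, and the 2 mice with the largest deviations weigh most in them.

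Among the other tested genes, those whose deviations were most like the mean of the 10 were *Tek* (r = 0.966 over 12 libraries), *Podxl* (0.965), *Adgrf5* (0.959), *Jcad* (0.958), *Kcnq1* (0.949), *Card10* (0.944), *Pole3* (0.942), *Ctnnbip1* (0.938), *Sox17* (0.936) and *Kif26a* (0.934). *Tek* is the angiopoietin receptor Tie2, *Podxl* a sialomucin of the vessel lumen and *Sox17* a factor of arterial endothelium, and these 3 were on the endothelial lists. *Kcnq1* is at a low level, with a mean log2 CPM of -0.38. The median r over all tested genes was -0.025 and the 99th percentile 0.753. By list, the median r was 0.781 for the 22 surface genes, 0.772 for the transcription factors, 0.672 for the arterial genes, 0.509 for the transporters and 0.497 for the junction genes. It was -0.04 for the other VEGF and angiopoietin pathway genes, with values between -0.451 and 0.966, and -0.116 for the 4 venous or activated genes. Among markers of other cells it was 0.527 for pericytes and smooth muscle, 0.261 for oligodendrocytes, 0.077 for platelets, -0.07 for astrocytes and -0.231 for microglia, and between -0.501 and -0.018 for the 6 other lists.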

How the data were processed

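Per the labels and the methods of the study, the authors trimmed the reads, aligned them to GRCm38 with STAR and counted them on genes with featureCounts 1.5.1. The deposited values are raw counts per gene without normalization. The strand setting is not given in the sources used here. Ensembl identifiers were matched to GENCODE M21, and 55227 of 55487 had a symbol. Genes were filtered with edgeR's filterByExpr (minimum count 10), scaled with TMM factors and tested with its quasi-likelihood test (edgeR 4.0.16 in R 4.3.3), with a mean per group and all 12 libraries. Unless called unadjusted, p-values are adjusted after Benjamini and Hochberg over all 15425 tested genes, and p-values are two-sided. Log2 CPM used a prior count of 2. The 10 genes and all lists were chosen with earlier results of these data known. Named were these 10 genes, the 3 genes of each endothelial list with the highest mean CPM, the 10 with the highest r and the paralogs *Abcb1b* and *Ly6c2*. The same rule held for markers of other cells, most of which are given only in the sum of their list. *Ackr1*, *Selp*, *Sele*, *Ppbp*, *Gp1ba* and *Gp1bb* were named after their values were seen. Pairs of mice of a group differed by more than counting error (chi-square per degree of freedom 5.81 to 34.1), so no library was counted as a repeat. Alternatives were DESeq2 1.42.0 (Wald test, or its size factors in edgeR), scaling by total counts, no filter, at least 10 counts in every library, only the groups compared, the replicate number as a block, and leaving out each library. The fits were tested on simulated data, in which DESeq2 recovered more of the changed genes and made more false calls than edgeR. Promoter sequences are those of RefSeq for GRCm38.p6, without bases downstream of a start in RefSeq or GENCODE.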

Additional observations from a re-analysis of the deposited data

How the results depend on the processing

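Numbers of called genes and summed ratios were recomputed under each alternative. Of these, 207 stayed within 1.5 times (numbers) or 1 SD (ratios) of the values above, and 21 did not. For the treatment of App mice, the number of the 10 genes called was 4 with DESeq2's Wald test, 1 without the filter on low counts, and 0 to 2 with any one mouse left out, where 0 was found with all mice. For the interaction it was 1 with DESeq2, 1 without the filter, and 0 to 1 with a mouse left out. Without the filter, 25 of 29173 genes were called for the treatment of App mice and 107 for the interaction. The number at the unadjusted threshold was 1 to 6 for the interaction with a mouse left out. For the treatment of WT mice it was 1 without the filter, 1 with only the groups compared in the fit, and 0 to 4 with a mouse left out. Over all genes it was 2248 of 29173 without the filter and 1734 of 14821 with only the groups compared. Without *Flt1* and *Slc2a1* the summed ratios were 0.596 for App veh to WT veh, 0.626 for App BRICHOS to App veh and 0.376 for App BRICHOS to WT BRICHOS mice, against 0.780 with them in the last case. Directions were reversed in 18 cases, all of uncalled genes. *Flt1* was at -0.01 between the BRICHOS-treated strains with scaling by total counts, and was called without WT BRICHOS mouse 1 (0.47). With a mouse left out, the log2 fold change of the WT treatment was between -0.21 and 0.03 for *Kdr*, between -0.32 and 0.07 for *Cdh5* and between -0.21 and 0.22 for *Ly6c1*, and the interaction was between -0.14 and 0.18 for *Flt1* and between -0.12 and 0.08 for *Slc2a1*. The cause was not tested. Replicate numbers were not taken to pair the mice, since the labels do not say what they stand for and same-numbered libraries had correlations of -0.114 to 0.264 over 18 pairs, of which 9 were above 0.1. Their mean was 0.0962, against -0.0474 for differently numbered libraries. With the replicate block in the fit, 8 of the 10 genes were called between App veh and WT veh mice and 0 for the treatment of App mice. Of the 15425 tested genes, 5991 and 0 were called in these comparisons with the block. Depth does not limit the 10 genes, whose lowest count was 143.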
